A study of Oryctolagus cuniculus with 6 samples.

Results

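The plasminogen activator system was followed in the RNA-seq libraries of primary limbal stem cells (LSCs) from rabbit limbal explants. It was taken as 6 of the 22190 genes in the count table, namely PLAU (NCBI gene 100008633), PLAUR (100101584), PLAT (100009556), SERPINB2 (100216509), SERPINE2 (100338234) and PLG (100357844). These genes were chosen by name for their known roles, with values of the preconditioned group against the fresh group already in view, so that their differences between the groups are given as a description and not as a test. The fresh group had 3 libraries, from explants of untreated corneas. The preconditioned group had 3 libraries, from explants of corneas that were held in liquid nitrogen for 7 days in a DMSO cryomedium with 10 ng/mL of the inflammatory cytokine IL-1β and then thawed. All explants were cultured in keratinocyte medium, and the cells that grew out were sequenced as poly(A) RNA. Freezing and IL-1β were always applied together, so that their shares in any difference cannot be told apart. The strain, age and number of rabbits, and which animal each library came from, are not given in the sources used here, and p values therefore measure the spread between these libraries only.

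Plasminogen is an inactive plasma protein that is cut into plasmin, a broad protease that dissolves fibrin and cleaves laminin, fibronectin and latent collagenases. The cut is made by urokinase (PLAU), which is secreted as a proenzyme and held at the cell surface by its receptor (PLAUR), or by the tissue-type activator (PLAT), which works best on fibrin. Serpins oppose these proteases by trapping them, and epithelial cells at the edge of a wound are known to make urokinase and its receptor while they migrate. Plasminogen itself is made mainly by the liver.

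The libraries held 31952352 to 34327534 counts on genes. Of all genes, 15029 passed the filter on low counts, and 344 of these (2.29%) met both cutoffs in edgeR's quasi-likelihood test, namely a Benjamini-Hochberg adjusted p up to 0.05 and a log2 fold change of 1 or more in either direction. This count ran from 14 without fresh replicate 2 to 1546 without preconditioned replicate 1, and was 1190 by DESeq2. With no fold change cutoff, 763 genes (5.08%) passed. For 36.7% of the tested genes the groups had no overlap, and in 17.9% the preconditioned libraries were the higher ones. On the first principal component, which held 50.4% of the variance, preconditioned replicate 1 lay at 8.13, the other preconditioned libraries at 58.3 and 70.4, and the fresh libraries between −53.1 and −41.1. Of the epithelial markers, KRT5, a basal keratin, was detected with 7337 to 11740.2 CPM over the 6 libraries. PAX6, the eye field transcription factor, had 174 to 459 CPM, and TP63, the gene of the epithelial stem cell factor p63, had 226 to 246 CPM in the fresh and 112 to 183 CPM in the preconditioned group. The limbal keratin KRT15 had 0.988 to 9.71 CPM and the corneal keratin KRT3 239 to 2655 CPM. TKT, a crystallin of differentiated corneal epithelium, fell from 1472, 1474 and 1045 CPM to 657, 468 and 792 CPM (log2 fold change −1.06, standard error 0.23, adjusted p = 0.0476), and it passed in 8 of 14 alternative analyses. Of the remaining epithelial markers, KRT17, KRT19, ITGA6, CLU, KRT4, KRT13 and IVL overlapped between the groups, and KRT24 did not pass the filter. CPM values are counts per library size, scaled with edgeR's TMM factors.

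Of the 6 genes, 5 passed the filter. The exception was PLG, the gene of plasminogen itself. It had 1 count in fresh replicate 1, 1 count in preconditioned replicate 1 and 0 counts in the other 4 libraries, which makes 2 of 200845690 counts. At most 3 counts in a library were read as not detected, which corresponds to 0.0820 to 0.0988 CPM at these depths. PLG mRNA was therefore not detected in either group, and no fold change was computed.

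PLAU, which encodes urokinase, was by FPKM (per length of the gene) the most abundant member in every library. Its expression was 2362, 2259.6 and 2093 CPM in fresh replicates 1 to 3. In preconditioned replicates 1 to 3 it was 4108, 6450.5 and 4786 CPM. All 3 preconditioned libraries lay above all 3 fresh libraries, and the lowest of them was 1.74 times the highest fresh library. The means were 2238 ± 135 and 5115 ± 1205 CPM (SD, n = 3 each), a ratio of 2.29 and a log2 fold change of 1.19 (standard error 0.18). PLAU took 0.223% to 0.249% of all counts in the fresh libraries and 0.396% to 0.589% in the preconditioned ones. By FPKM it ranked 70 to 80 among all genes of a fresh library and 21 to 36 among those of a preconditioned library. PLAU alone of the 5 detected members met both cutoffs, and it alone had groups without overlap. These counts stand against 2.29% and 36.7% of all tested genes, and nothing was read from them because the contrast served to choose the members. PLAU met both cutoffs in 6 of 14 alternative analyses, and in 1 of the 6 that left out a library.

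**Figure D1:**
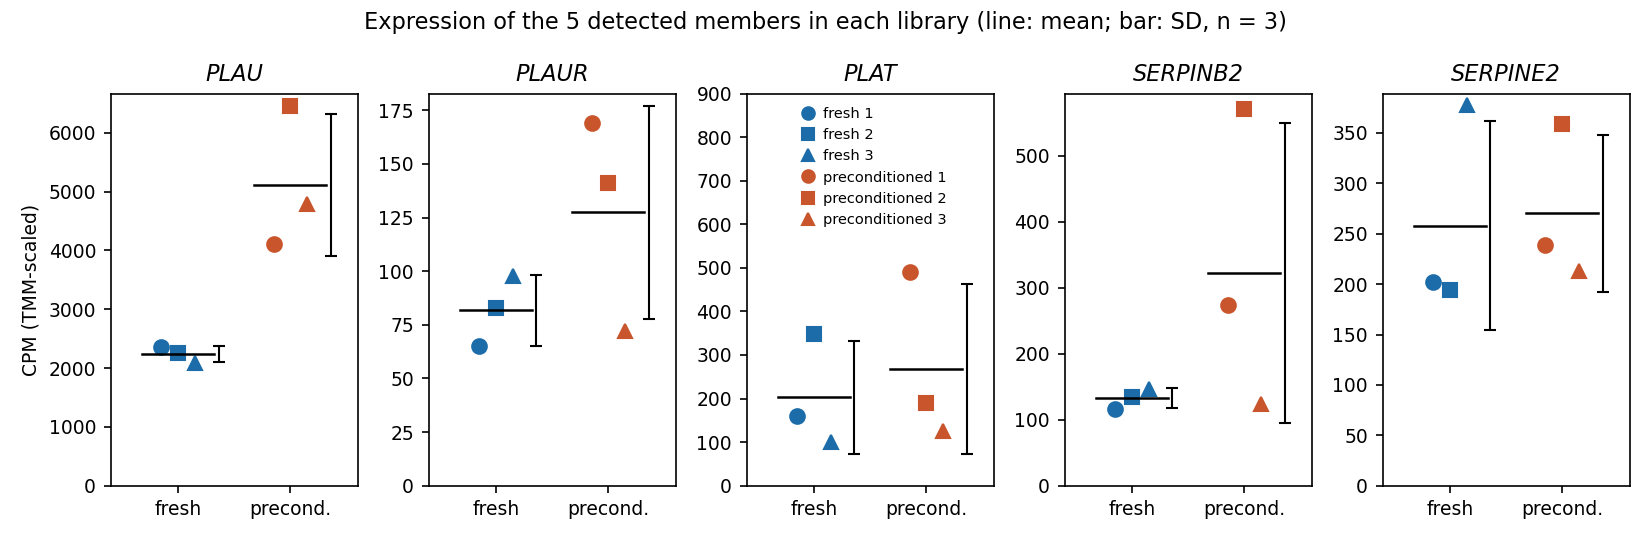
Expression of the 5 detected members in CPM, each axis starting at 0, for the fresh (blue) and preconditioned (orange) libraries, with the symbol marking the replicate number, the line the mean and the bar the SD. PLAU lies at 2093 to 2362 CPM in the fresh and 4108 to 6450.5 CPM in the preconditioned libraries, whereas the groups overlap for PLAUR, PLAT, SERPINB2 and SERPINE2.

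PLAUR encodes the receptor that holds urokinase at the membrane by a glycolipid anchor. Its expression was 64.9, 82.7 and 97.9 CPM in fresh replicates 1 to 3 and 169, 141 and 72.2 CPM in preconditioned replicates 1 to 3. Preconditioned replicates 1 and 2 were above every fresh library, while preconditioned replicate 3 lay among the fresh libraries. The fresh and preconditioned means were 81.8 ± 16.5 and 128 ± 50.0 CPM (SD, n = 3 each), and the log2 fold change was 0.64 (standard error 0.32). Without preconditioned replicate 3 the log2 fold change was 0.93, and without preconditioned replicate 1 it was 0.37.

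PLAT encodes the tissue-type activator, best known from endothelium, where it starts the lysis of clots. It had 161, 348 and 99.8 CPM in fresh replicates 1 to 3 and 490.2, 189.7 and 125 CPM in preconditioned replicates 1 to 3. A single library was high in each group, fresh replicate 2 and preconditioned replicate 1, and the other 4 libraries lay between 99.8 and 189.7 CPM. The fresh and preconditioned means were 203 ± 129 and 268 ± 195 CPM (SD, n = 3 each), and the log2 fold change was 0.40 (standard error 0.62). The direction depended on 1 library, since the log2 fold change was −0.38 without preconditioned replicate 1 and 1.04 without fresh replicate 2. Of the 6 endothelial markers, CDH5, VWF, KDR and TEK were each at most 0.224 CPM in all 6 libraries. The summed markers had 4.44 and 1.64 CPM in the libraries with the most PLAT, fresh replicate 2 and preconditioned replicate 1, and were highest in preconditioned replicate 2, at 15.1 CPM. These sums came mainly from PECAM1 and EMCN, and the part of endothelial cells in the values of PLAT was not tested.

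SERPINB2 encodes plasminogen activator inhibitor type 2, which inhibits urokinase and stays largely inside the cell. It had 116, 135 and 147 CPM in fresh replicates 1 to 3 and 274, 571 and 124 CPM in preconditioned replicates 1 to 3. Preconditioned replicates 1 and 2 were both above the fresh libraries, and preconditioned replicate 3 was level with them. The means were 133 ± 15.7 and 323 ± 228 CPM (SD, n = 3 each), a ratio of 2.43. This ratio was above that of PLAU, but the fresh and preconditioned ranges overlapped and the standard error was larger (log2 fold change 1.28, standard error 0.50). The log2 fold change was 0.58 without preconditioned replicate 2 and 1.67 without preconditioned replicate 3. The preconditioned libraries spanned 4.61-fold, against 1.27-fold in the fresh group.

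SERPINE2 encodes protease nexin 1, a serpin of the cell surface and matrix that inhibits thrombin, urokinase and plasmin. It had 202, 194 and 378 CPM in fresh replicates 1 to 3 and 239, 359 and 213 CPM in preconditioned replicates 1 to 3. Fresh replicate 3 was the highest of all 6 libraries, and the groups overlapped over most of their ranges. The fresh and preconditioned means were 258 ± 104 and 271 ± 77.5 CPM (SD, n = 3 each), and the log2 fold change was 0.07 (standard error 0.31). Its sign was not stable, at −0.11 when libraries were scaled to their totals without TMM and 0.45 without fresh replicate 3.

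**Figure D2:**
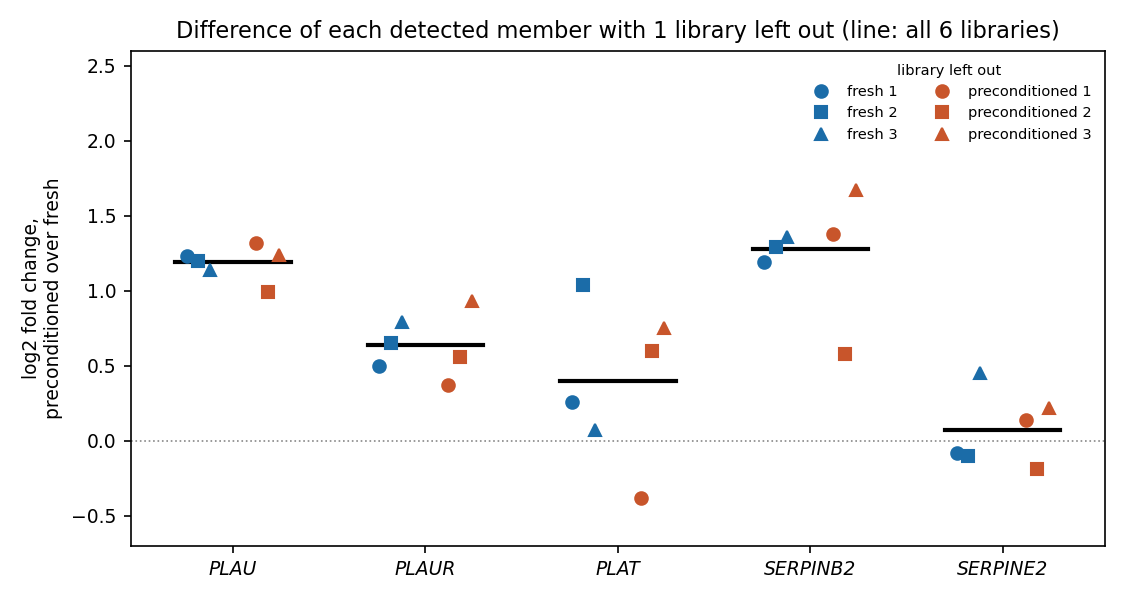
Log2 fold change of each detected member, preconditioned over fresh, with all 6 libraries (black line) and with each library left out in turn (symbols, coloured by the group of the library left out). PLAU stays between 0.99 and 1.32, while PLAT ranges from −0.38 to 1.04 and SERPINE2 from −0.19 to 0.45.

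The members also differed in how much they varied between libraries of the same group. The SD of log2 CPM within groups was 0.24 for PLAU, against a median of 0.27 over all tested genes and of 0.19 over the 500 genes nearest to it in level. For PLAUR it was 0.50, for SERPINE2 0.47, for SERPINB2 0.79 and for PLAT 0.96. Each of these was larger than that of at least 93.6% of the 500 genes nearest in level, and for PLAT the share was 99.6%. The spread of SERPINB2 was uneven, with an SD of 0.17 among the fresh and 1.10 among the preconditioned libraries. It was 0.09 and 0.33 for PLAU and 0.30 and 0.65 for PLAUR, against medians of 0.20 and 0.29 over all tested genes. SERPINE2 went the other way, with 0.54 and 0.39. For PLAT the SD was 0.91 and 1.01.

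Levels of different genes were compared on FPKM, which is per length of the gene. In the fresh group PLAU had 922 ± 51.3 FPKM (SD, n = 3), followed by SERPINE2 at 124 ± 50.8, PLAT at 80.9 ± 51.5, SERPINB2 at 72.6 ± 8.93 and PLAUR at 67.2 ± 13.9. PLAU was 7.42 times the next gene, and its range did not overlap with that of any other member. The ranges of neighbours from SERPINE2 down to PLAUR all overlapped, although SERPINB2 was above PLAUR in each of the 3 fresh libraries. In the preconditioned group PLAU had 1867 ± 384 FPKM, and SERPINB2 came next at 155 ± 105, ahead of SERPINE2 at 115 ± 29.8. PLAT had 95.9 ± 71.7 and PLAUR 93.1 ± 37.1 FPKM there (SD, n = 3 each). Below PLAU the neighbours again overlapped, and so did every other pair of these 4 genes. In the fresh group, SERPINE2 (93.3 to 183 FPKM) lay above every value of SERPINB2 (63.1 to 80.9) and PLAUR (53.0 to 80.7), and the remaining pairs overlapped.

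**Figure D3:**
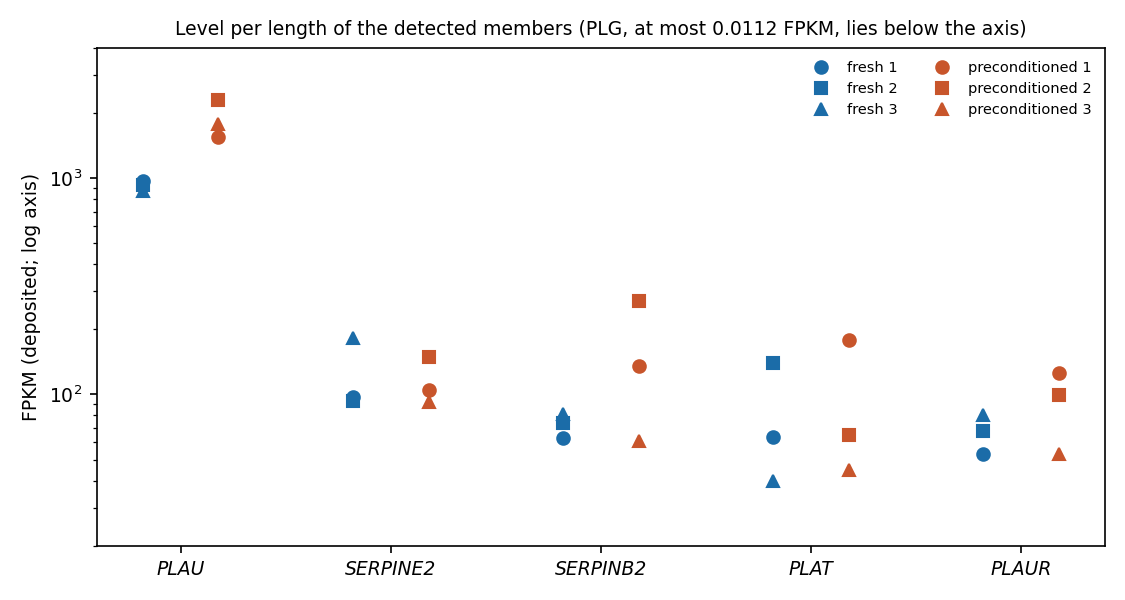
Deposited FPKM of the 5 detected members on a log axis, by library, with fresh in blue and preconditioned in orange. PLAU is the highest member in all 6 libraries, at 867 to 2290.4 FPKM, and no other member exceeds 269 FPKM.

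Ratios within a library do not depend on how libraries are scaled against each other. The FPKM ratio of PLAU to SERPINE2 was 10.01, 9.98 and 4.74 in fresh replicates 1 to 3 and 14.7, 15.4 and 19.2 in preconditioned replicates 1 to 3. Every preconditioned library was above every fresh library for this ratio, as was already so for PLAU alone. Nothing was read from this separation, because the contrast served to choose the members. The ratio of PLAU to SERPINB2 was 15.3, 12.6 and 10.7 in the fresh libraries and 11.3, 8.53 and 29.1 in the preconditioned libraries. Here the groups overlapped, with preconditioned replicate 2 the lowest and preconditioned replicate 3 the highest of all. Against the sum of both inhibitors, PLAU stood at 3.29 to 6.06 in the fresh and 5.49 to 11.6 in the preconditioned libraries, which also overlapped. The ratio of PLAU to its receptor was 10.7 to 18.3 and 12.2 to 33.3, with preconditioned replicate 1 within the fresh range. To PLAT, the other activator, it was 6.71 to 21.7 and 8.66 to 39.5. In all 6 libraries, the transcript of urokinase thus exceeded that of its receptor at least 10.7-fold per length.

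**Figure D4:**
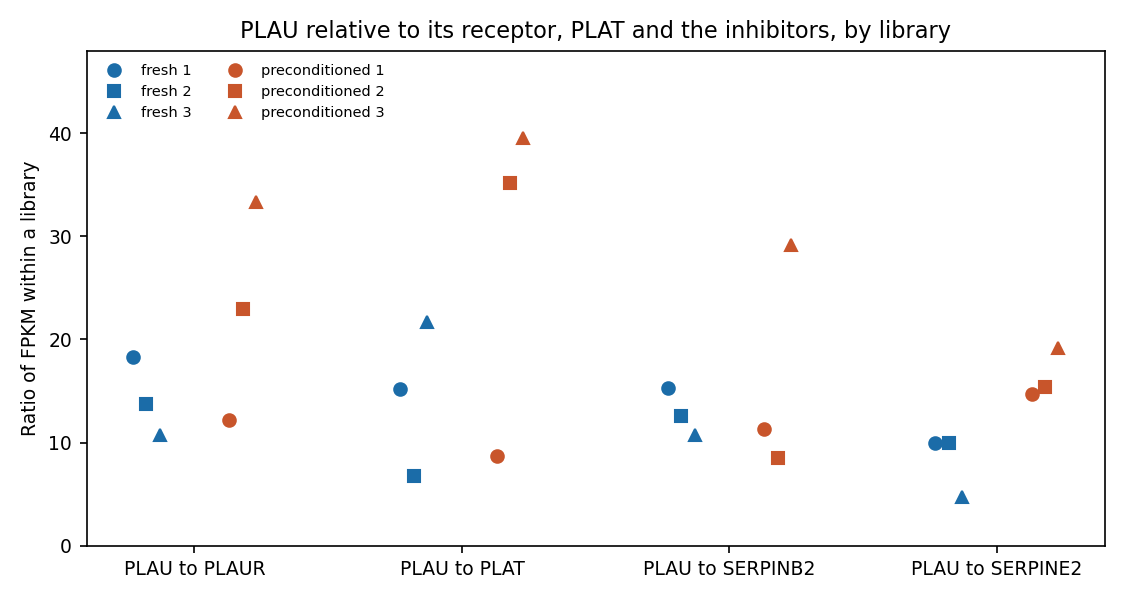
FPKM of PLAU divided by that of PLAUR, PLAT, SERPINB2 or SERPINE2 in the same library, on a linear axis from 0. The groups separate for the ratio to SERPINE2 (4.74 to 10.01 fresh, 14.7 to 19.2 preconditioned) and overlap for the other 3 ratios.

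All 6 members carried the deposited annotation of the KEGG pathway for complement and coagulation cascades, which 68 genes of the table share and 42 of the tested genes. The GO term fibrinolysis was attached to PLAU, SERPINB2 and PLG and to 10 genes in all, 4 of which passed the filter. PLAU was annotated with plasminogen activation and with positive regulation of cell migration, and SERPINE2 with negative regulation of plasminogen activation. The single gene of the table with the term for urokinase receptor activity was PLAUR.

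Likeness of pattern was measured by Pearson's r of log2 CPM over the 6 libraries, among 8316 other genes with a symbol and at least 10 CPM on average. With 6 points and a difference between groups, high values are common, and no p was attached. PLAU was most like PRRG2 (r = 0.996), NDUFA7 (0.996) and CUEDC2 (0.994), and 275 genes reached an r of 0.95. PLAUR was most like SERPINB11 (0.991), PEX13 (0.984) and PID1 (0.983), and only 16 genes reached 0.95. SERPINB11, a relative of SERPINB2, had 152, 217 and 242 CPM in the fresh and 428, 343 and 159 CPM in the preconditioned libraries, which is the order of PLAUR among the libraries of each group. PLAT was most like BCL2L1 (0.986), XG (0.983) and DUSP22 (0.971). SERPINB2 followed DPH6 (0.975), OAF (0.963) and SERPINH1 (0.961), the last of which encodes a collagen chaperone. SERPINE2 followed CRABP1 (0.985), TPBG (0.970) and MYO10 (0.969), and the log2 fold changes of these 3 genes were −0.03 to 0.08.

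Around the members, 97 further genes were listed by role, of which 84 were in the table and 74 passed the filter. Of these 74 genes, 5 (6.76%) passed an adjusted p of 0.05 in edgeR's quasi-likelihood test, against 5.08% of all tested genes. In the preconditioned group 3 of the 5 were higher and 2 were lower. With the fold change cutoff added, the 2 lower genes remained (2.70%, against 2.29%). There was no overlap between the groups for 17 of the 74 genes (23.0%, against 36.7%), and the preconditioned group was the higher one for 11 of the 74 (14.9%, against 17.9%). The median log2 fold change was 0.07, against 0.01 over all tested genes. By DESeq2 with both cutoffs, 7 of the 75 listed genes with an adjusted p (9.33%) were called, against 7.78% of all genes. Of all tested genes, 30.6% had an unadjusted p under 0.05 in edgeR, and 19.1% passed DESeq2's adjusted p with no fold change cutoff, which are the shares to set beside the counts of each list.

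Among proteins that bind plasminogen at the cell surface, 0 of 5 tested genes passed an adjusted p of 0.05 in edgeR, against 1 at an unadjusted p under 0.05 and 1 by DESeq2's adjusted p. S100A10, whose protein presents plasminogen through a carboxy-terminal lysine, was the highest of this list by FPKM, with means of 4087 FPKM in the fresh and 4739 FPKM in the preconditioned group. Its partner ANXA2 had 4559.5, 4063 and 3886 CPM in the fresh and 6038, 6887 and 5727 CPM in the preconditioned libraries. The groups of ANXA2 did not overlap, but its log2 fold change of 0.58 (standard error 0.13) missed the threshold (adjusted p = 0.0525). ENO1 and the plasminogen receptor PLGRKT had log2 fold changes of 0.29 and 0.25, with adjusted p of 0.17 and 0.309.

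Among receptors and partners of urokinase and PLAUR, 14 of 15 genes were tested and 2 integrin chains rose. ITGAV, the αv chain of the vitronectin receptor, rose from 165, 169 and 175 CPM to 232, 308 and 274 CPM (log2 fold change 0.68, standard error 0.13, adjusted p = 0.0398). ITGB1, the β1 chain, with which PLAUR is known to associate, rose from 2145, 1532 and 1933 CPM to 2719, 3875 and 3936 CPM (log2 fold change 0.91, standard error 0.20, adjusted p = 0.0479). Over the 14 alternatives the adjusted p stayed at or below 0.05 in 6 for ITGAV and in 5 for ITGB1, and for both it was lost in 5 of the 6 that left out a library. By DESeq2's adjusted p 2 of the 14 genes passed, and 3 had an unadjusted p under 0.05 in edgeR. ITGB1 was the most abundant gene of this list by FPKM. The β chains ITGB3 and ITGB5 had log2 fold changes of −0.19 and −0.06 (edgeR, adjusted p = 0.863 for each). The other α chains listed did not pass, with ITGA3 at −0.23, ITGA5 at 0.32 and ITGA6 at −0.12 on the log2 scale. For ITGA3 the groups did not overlap, at 1012 to 1046 CPM in the fresh and 774 to 970.2 CPM in the preconditioned libraries. LRP1, the receptor that clears urokinase bound to its inhibitors, had 405 ± 92.7 and 418 ± 114 CPM (SD, n = 3 each). Vitronectin (VTN) did not pass the filter.

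Substrates of plasmin or urokinase included chains of the anchoring laminin of epithelial basement membranes. LAMB3 rose from 832, 779.6 and 944 CPM to 1687, 1971 and 1429 CPM (log2 fold change 0.99, standard error 0.16, adjusted p = 0.0318). LAMB3 passed in 9 of the 14 alternatives and in 2 of the 6 that left out a library. For LAMA3, another chain, the groups did not overlap either, at 2003 to 2673 and 3306 to 3598 CPM, but the adjusted p was 0.0562. MMP1, a collagenase whose proenzyme plasmin can activate, had the highest FPKM of the list over all 6 libraries but not in the fresh group (178, against 222 for LAMA3), and its log2 fold change of 1.48 had an adjusted p of 0.0576. MMP13, another collagenase, and IGFBP5 had log2 fold changes of 1.13 and 0.82 with adjusted p of 0.0756 and 0.061. Of 16 tested substrates, 11 had a log2 fold change above 0, against 40 of the 74 listed genes and 7595 of all 15029 tested genes, and 1 passed in edgeR. By DESeq2's adjusted p 6 of the 16 passed, and 5 had an unadjusted p under 0.05 in edgeR. The fibrinogen chains FGB and FGG did not pass the filter.

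Among 7 tested genes of protease inhibitors other than the members, SERPINB8, a clade B serpin, passed both cutoffs in edgeR, while 4 had an unadjusted p under 0.05 and 3 passed DESeq2's adjusted p. Whether SERPINB8 inhibits plasmin or its activators was not examined here. The mean of SERPINB8 fell from 5.73 ± 0.665 to 2.26 ± 0.629 CPM (SD, n = 3 each, log2 fold change −1.34, standard error 0.29, adjusted p = 0.0479). Its adjusted p stayed at or below 0.05 in 8 of the 14 alternatives and in 1 of the 6 that left out a library. SERPING1, the C1 inhibitor, had 21.4 to 42.6 CPM in the fresh and 3.19 to 12.4 CPM in the preconditioned libraries, with a log2 fold change of −1.80 (adjusted p = 0.0758). The membrane inhibitors SPINT1 and SPINT2 lay in the other direction, at 0.54 and 0.52 on the log2 scale, with adjusted p of 0.0969 and 0.0585. SPINT2 had the highest FPKM of the list. SERPINF2, the main plasma inhibitor of plasmin, and SERPINA5 did not pass the filter.

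Of proteases that can activate the urokinase proenzyme, 5 were tested and 0 passed in edgeR, with 1 at an unadjusted p under 0.05 and 1 by DESeq2's adjusted p. TMPRSS4, a membrane serine protease, had 237 to 242 CPM in the fresh and 285 to 509 CPM in the preconditioned libraries, without overlap (log2 fold change 0.76, adjusted p = 0.066). CTSB, the most abundant of them, had 464 ± 66.4 and 615 ± 169 CPM (SD, n = 3 each) and an adjusted p of 0.258. KLKB1 and F12, plasma activators made by the liver, did not pass the filter.

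Of 24 tested signals and transcription factors known to act on PLAU or PLAUR, NFKB1 alone passed in edgeR, where it met both cutoffs, while 4 had an unadjusted p under 0.05 and 2 passed DESeq2's adjusted p. NFKB1 encodes the p105 precursor of an NF-κB subunit and fell from 83.3, 98.9 and 89.8 CPM to 60.6, 34.6 and 34.0 CPM (log2 fold change −1.07, standard error 0.24, adjusted p = 0.0498). This held in 8 of the 14 alternatives and in 1 of the 6 that left out a library. NFKBIA, the inhibitor of NF-κB that NF-κB induces, had 76.9 to 89.2 and 60.6 to 66.3 CPM, with no overlap and an adjusted p of 0.0607. RELA, NFKB2 and RELB had log2 fold changes of 0.08, −0.12 and −0.16. The AP-1 genes FOS, JUN, JUNB, FOSL1 and FOSL2 had log2 fold changes of 0.37, 0.21, 0.02, 0.06 and −0.07, with adjusted p from 0.208 to 0.924. IL1RN, the IL-1 receptor antagonist, had the highest FPKM of the list over all 6 libraries but not in the preconditioned group (450.1, against 464 for IL1A), with 899 ± 152 and 758 ± 237 CPM (SD, n = 3 each, adjusted p = 0.509). IL1A had 792 ± 186 and 978 ± 187 CPM, and IL1B had 2.53 to 15.1 CPM over the preconditioned libraries, against 4.54 to 5.29 CPM in the fresh group.

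Of the relatives of PLAUR in the LY6 and uPAR domain family, 4 were tested and 0 passed in edgeR, while 1 had an unadjusted p under 0.05 and 1 passed by DESeq2's adjusted p. CD59, which protects cells from complement, had 4.29 to 5.42 CPM in the fresh and 6.66 to 13.4 CPM in the preconditioned libraries (log2 fold change 1.22, adjusted p = 0.0585). SLURP1, a secreted relative, had the highest FPKM of the list over all 6 libraries but not in the preconditioned group (3.77, against 4.04 for CD59), with 2.57 ± 1.08 and 3.83 ± 0.715 CPM (SD, n = 3 each, adjusted p = 0.336).

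**Figure D5:**
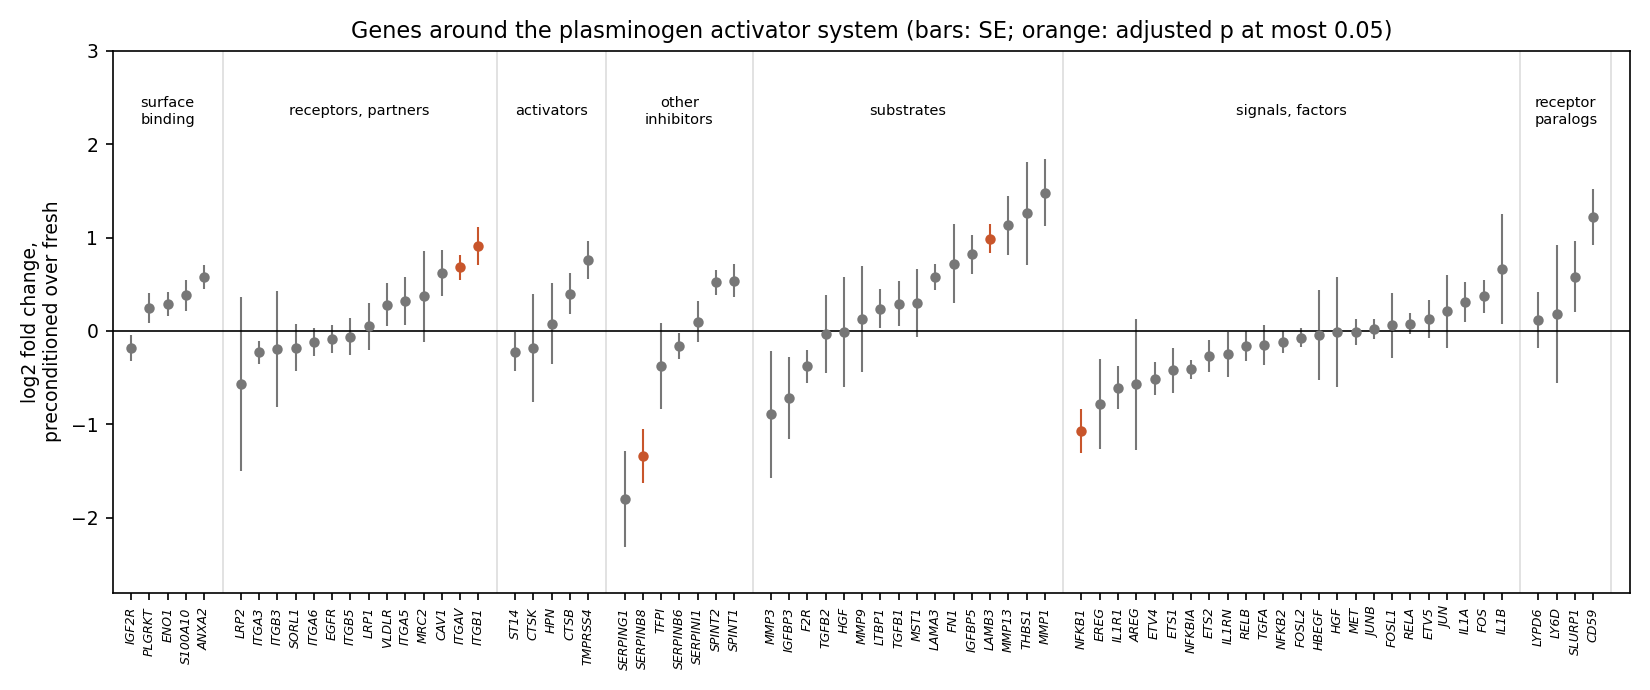
Log2 fold change, preconditioned over fresh, of the tested genes around the system, grouped by role, with the standard error as a bar and genes that passed an adjusted p of 0.05 in orange. ITGAV, ITGB1 and LAMB3 lie above 0 and SERPINB8 and NFKB1 below it, and HGF stands in 2 of the groups.

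Urokinase, its receptor and the serpins are made by fibroblasts and macrophages as well as by epithelium, so markers of other cells were read in the same libraries. In bulk RNA, fewer cells of a type and less RNA per cell cannot be told apart. The 11 stromal markers in the table summed to 530.5 to 1147 CPM in the fresh and 1303 to 2328 CPM in the preconditioned libraries, with the highest sum in preconditioned replicate 2, which also had the most PLAU and SERPINB2. COL1A1, the main collagen chain of fibroblasts, rose (log2 fold change 2.66, adjusted p = 0.0153, passed in 12 of the 14 alternatives). It made up 56.8 to 109 CPM of the stromal sums in the fresh and 505 to 693 CPM in the preconditioned libraries. The separation of these sums between the groups depended on COL1A1. The keratocyte gene KERA had 2.53 to 8.81 CPM in the fresh and 0.790 to 2.86 CPM in the preconditioned group. FAP, a fibroblast protease, had 0.788 to 2.87 and 4.02 to 7.55 CPM (adjusted p = 0.0756), and KERA, VIM, COL1A2, COL3A1, LUM, DCN, PDGFRA, PDGFRB and THY1 overlapped between the groups. The 9 leukocyte markers summed to 110.1 to 144 CPM in the fresh libraries and to 128, 370.2 and 306 CPM in preconditioned replicates 1 to 3. These sums came mainly from CD68, with 93.4 to 129 CPM in the fresh libraries and 121, 299.6 and 288 CPM in preconditioned replicates 1 to 3. PTPRC, the pan-leukocyte gene, was at most 1.50 CPM in every library and CD3E was at most 3 counts, while CD68 reached 299.6 CPM and the macrophage gene MRC1 43.1 CPM. CD14, CSF1R, ITGAM, CD163 and AIF1 were each at most 11.4 CPM, and the groups overlapped for all 9 leukocyte markers. The 6 melanocyte markers summed to at most 5.80 CPM, with TYR, PMEL and MLANA at no more than 3 counts in any library. Only MITF of this list passed the filter. It had 4.22 to 5.44 CPM in the fresh and 2.19 to 3.69 CPM in the preconditioned libraries, without overlap (edgeR, adjusted p = 0.200). In preconditioned replicate 1, where PLAU, PLAUR and SERPINB2 were above all fresh libraries, the leukocyte sum was within the fresh range and the stromal sum, at 1323 CPM, was above it. COL1A1 made up 537 CPM of that stromal sum. In the same library COL1A2 and FAP were also above their fresh ranges, while DCN, PDGFRA and THY1 were below theirs. VIM, COL3A1, LUM, KERA and PDGFRB were within their fresh ranges there. The part of stromal cells or leukocytes in the values of the members was not tested.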

How the data were processed

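Poly(A) RNA of primary LSCs was sequenced on an Illumina platform, with 3 fresh and 3 preconditioned libraries. The authors aligned reads with hisat2 2.1.0 and counted them per gene with htseq-count 0.11.2, and they deposited raw counts without normalization. In the table of FPKM from the authors, values were recomputed exactly from the counts with the library total and 1 length per gene. The genome build, annotation and strand setting are not given in the sources used here, so no coordinates were used. Groups and replicate numbers came from the sample titles.

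The count model was edgeR 4.0.16 under R 4.3.3, with filterByExpr, TMM and a robust quasi-likelihood fit on condition alone. Adjustment was by Benjamini-Hochberg over 15029 genes, and calls needed an adjusted p up to 0.05 and a log2 fold change of 1 or more in either direction. Standard errors were derived from the F statistic. At 31952352 or more counts per library, the spread between libraries limits the precision except at low counts, and limits from counts cover counting error only. The members and all gene lists were chosen with earlier results of these data known. For members no p value is given, and whether they met the cutoffs in the fit over all genes is a description. For listed genes p values adjusted over all genes are given, which are not independent evidence of what their choice may have used. Named genes were the members, listed genes called or with an adjusted p up to 0.1, the gene of highest mean FPKM of each list, marker genes (some of them only by the sum or the overlap of their list), and the 3 genes most like each member. Other listed genes named beside them were picked for their roles, after their values had been seen. Of 97 listed genes, 13 were not analysed here, and 2 genes beyond the 97 are not reported here.

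The alternatives were DESeq2 1.42.0, its size factors, library size alone, 2 other filters, a replicate block, leaving out each library, limma 3.58.1 on log2(FPKM + 1) and log2(FPKM + 0.1), and, added after seeing the data, no fold change cutoff. The last was applied only to the counts of called genes and is not among the 14 alternatives counted for single genes. The correlation of deviations of same-numbered libraries was −0.109 to −0.0668, so the numbers were not read as pairs. Libraries of a group differed beyond sampling noise (chi-square per degree of freedom 48.1 to 147), so each counted as 1 sample. The fits were tested on simulated data.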

Additional observations from a re-analysis of the deposited data

How the results depend on the processing

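The log2 fold changes of PLAU, PLAUR and SERPINB2 kept their direction in all 14 alternatives, and that of PLAT in 13, the exception being the fit without preconditioned replicate 1 (−0.38). SERPINE2 kept its direction in 8 of 14. Leaving out each library gave 0.99 to 1.32 for PLAU, 0.37 to 0.93 for PLAUR, −0.38 to 1.04 for PLAT, 0.58 to 1.67 for SERPINB2 and −0.19 to 0.45 for SERPINE2. PLAU met both cutoffs in 6 of the 14 alternatives, and in 1 of the 6 that left out a library. SERPINB2 met them in 1 of 14. On deposited FPKM as on CPM, 1 member had groups without overlap, and the order of the libraries was the same on both for 3 of the 5 detected members.

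Against 344 genes called in all, DESeq2 gave 1190, library size alone 565 (142 higher, 423 lower, against 163 and 181), limma on log2(FPKM + 0.1) 590 (141 higher, 449 lower), the replicate block 30, no fold change cutoff 763, and leaving out each library 14 to 1546, the highest without preconditioned replicate 1. Of the listed genes around the system, 2 were called, against 7 by DESeq2, 0 with the replicate block, 5 with no fold change cutoff, and 0 to 8 without single libraries, again the highest without preconditioned replicate 1. The adjusted p ranged over the 14 alternatives from 0.00096 to 0.149 for ITGAV, 0.00102 to 0.163 for ITGB1, 4.5e-06 to 0.134 for LAMB3, 0.00037 to 0.166 for SERPINB8 and 0.00139 to 0.165 for NFKB1, and the 5 genes stayed at or below 0.05 in 5 to 9 of them. The cause of these shifts was not tested.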
